A study of Mus musculus with 3 samples.

Results

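The genes described here are the cyclins, the cyclin-dependent kinases (CDKs) and the CDK inhibitors of the mouse, 58 of the 21887 protein-coding genes in RefSeq for GRCm38.p6, the build that the files call mm10. They were taken by symbol alone, as names made of Ccn and a letter, Cdk and a number, or Cdkn followed by 1, 2 or 3. The naming rule uses no measured value, although it and the classes below were set with earlier results of these data known. It also brought in 5 genes that are neither cyclin, kinase nor CDK inhibitor in this sense (Ccnb1ip1, Ccndbp1, Cdkn2aip, Cdkn2aipnl and Cdkn3), which were kept as a class of their own. Cdk3 is annotated as a pseudogene in this table and is not a member.

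The mark measured was acetylation of lysine 27 on histone H3 (H3K27ac), read by chromatin immunoprecipitation and sequencing. The cells were thymocytes without CD4 and CD8 and with CD25, either with or without CD44, sorted from the thymus of wild-type C57BL/6J mice of 5 to 7 weeks and processed without culture or treatment. The group has 2 replicates, and the labels do not say whether these came from separate animals. An input sample taken before the H3K27ac antibody is listed as well and was not analysed here. The deposited lists hold 12377 peaks (replicate 1) and 9477 peaks (replicate 2) on the assembled chromosomes. They hold no read counts, so the depth is unknown. All folds, p-values and q-values are those of the authors' peak caller. There is no second condition, so the design allows no test between groups, and counts over all protein-coding genes are printed beside those of the members. Of 10 marker genes of double-negative thymocytes, 4 (Cd3e, Cd3g, Dntt and Tcf7) had a peak of each replicate within 1 kb of a gene end, 3 (Bcl11b, Il2ra and Ptcra, of which Il2ra encodes CD25) had one in a single replicate, and 3 (Notch1, Rag1 and Rag2) had none. None of 16 markers of later thymocytes, B cells, myeloid cells, erythroid cells or thymic stroma had a gene-end peak in either replicate.

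Cyclins are the regulatory subunits that switch on CDKs, and the class of a CDK follows the step it drives. D-type cyclins with Cdk4 or Cdk6, and E-type cyclins with Cdk2, move cells through G1 by phosphorylating the retinoblastoma proteins and so releasing E2F factors. A-type and B-type cyclins with Cdk2 or Cdk1 drive S phase, G2 and mitosis, and their genes are switched on late in each cycle. Another branch acts on transcription by RNA polymerase II, through Cdk7, Cdk8, Cdk9, Cdk11, Cdk12, Cdk13 and Cdk19 with cyclins C, H, K, L and T. CIP/KIP and INK4 proteins inhibit the cell cycle kinases. In the thymus, double-negative cells proliferate before and after rearrangement of the T cell receptor beta gene, and Ccnd3 and Cdk6 are known for their part in that expansion.

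A gene is called marked below when each replicate had a peak within 1 kb of either of its annotated ends. By that rule 20 of the 58 members (34.5%) were marked, against 16.8% of all protein-coding genes. In replicate 1 alone 27 members had a gene-end peak (46.6%, against 25.1% of all genes), and in replicate 2 alone 23 (39.7%, against 22.2%). A further 10 members had a gene-end peak in 1 replicate only, and 28 had none. Of the 30 members with a peak in either replicate (51.7%, against 30.5% of all genes), most belonged to the G1 and transcriptional classes. The classes differed widely: 9 of 14 transcriptional members were marked (64.3%), 3 of 8 G1 members (37.5%), and 0 of 7 members of S phase, G2 and mitosis. These lists are short and no test was made between them.

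**Figure D1:**
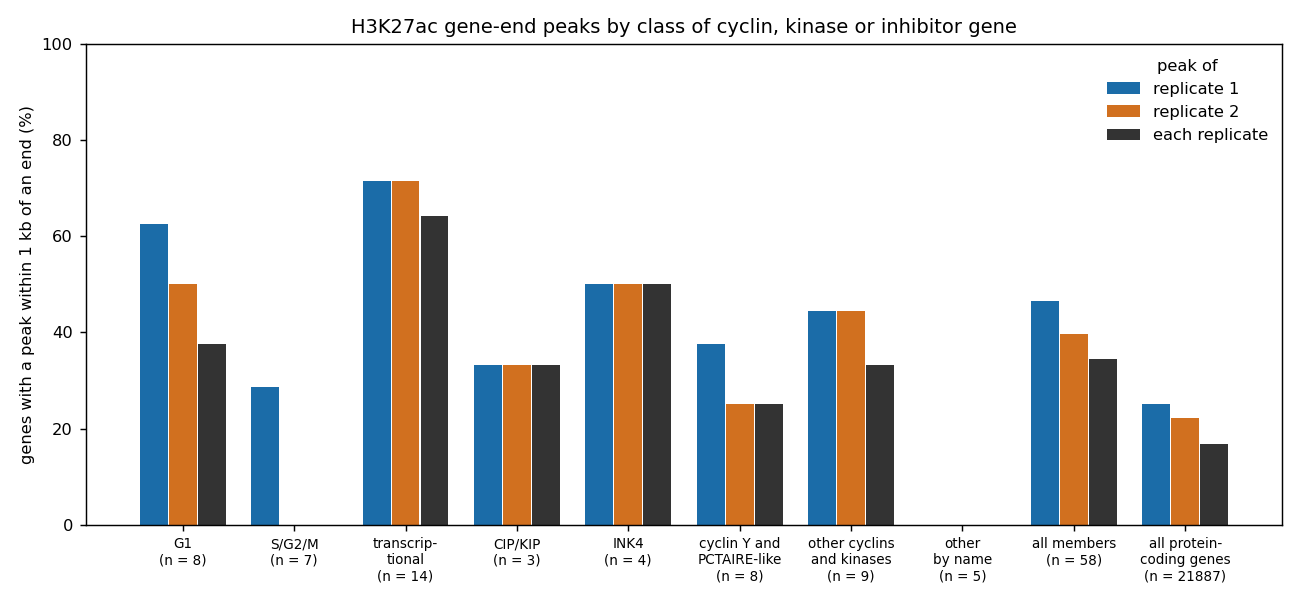
Share of genes with an H3K27ac peak within 1 kb of a gene end (%, vertical axis) in replicate 1, in replicate 2 and in each of the 2, for the classes of members, all 58 members and all 21887 protein-coding genes. The transcriptional class stands highest, at 64.3% for genes with a peak of each replicate, and the S/G2/M class has a bar for replicate 1 alone.

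Among the G1 genes, Ccnd2, Cdk4 and Cdk6 were marked. Ccnd2, a D-type cyclin on chromosome 6, had a peak of 2616 bp at its higher-coordinate end in replicate 1 (127149528 to 127152143), with a fold of 2.56 and a −log10 q of 2.10. In replicate 2 the same end had a peak of 1364 bp (127152025 to 127153388), with a fold of 5.02 and a −log10 q of 19.3. Of these 2 peaks that of replicate 2 had the larger fold, and 97.9% of that replicate's gene-end peaks were lower. Replicate 1 had a further peak of 500 bp 1874 bp beyond the same end, with a fold of 5.13 and a −log10 q of 6.08. Inside the gene a second replicate 2 peak of 1113 bp, with a fold of 4.49, lay wholly under the replicate 1 peak, so that peaks of both replicates covered 1232 bp of Ccnd2. Chromosome 6 had median folds of 2.31 and 2.44 over all its peaks, against 2.17 and 2.31 genome-wide.

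The other D-type cyclins differed from Ccnd2. Ccnd3, on chromosome 17, had a peak of 289 bp at its low-coordinate start in replicate 1 (fold 2.30, −log10 q 0.875) and no gene-end peak in replicate 2. Within the gene, replicate 1 had peaks of 572 bp and 1159 bp and replicate 2 had a peak of 229 bp, none of which overlapped a peak of the other. The shared region nearest to Ccnd3 was 377 bp wide and 11888 bp beyond the gene, at the ends of Bysl, Med20 and Gm20517. Ccnd1 had no peak within 14 kb of either end: the nearest peaks were 14016 bp away in replicate 1 and 14520 bp away in replicate 2, and they did not overlap. The D-type cyclins therefore ranged from a marked gene to a gene without a nearby peak.

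Cdk4 and Cdk6, the paralogous partners of the D-type cyclins, were both marked, with different extents. At Cdk4 (chromosome 10, 127063535 to 127067288) the peaks of the replicates nearly coincided: 767 bp in replicate 1 (fold 2.06, −log10 q 0.690) and 663 bp in replicate 2 (fold 2.16, −log10 q 0.861), starting 66 bp and 73 bp past the gene's start. In width these peaks are near the middle of the gene-end peaks of their lists, with 50.4% and 48.3% narrower. Cdk6 (chromosome 5, 3341004 to 3531008) had far broader ones, 3063 bp in replicate 1 (fold 2.25) and 2902 bp in replicate 2 (fold 2.44). Of all gene-end peaks, 98.6% and 99.2% were narrower than these. A second broad region lay deep in the body of Cdk6, 92737 bp from its nearer end, where a replicate 1 peak of 2586 bp (fold 1.82) and a replicate 2 peak of 2490 bp (fold 2.52) shared 2347 bp (3435925 to 3438271). No end of another protein-coding gene lay within 1 kb of that shared region. Together 4517 bp of Cdk6 were under peaks of both replicates, 2170 bp of it at the gene end. Neither replicate's peaks at Cdk4 or at these 2 regions of Cdk6 reached a q of 0.05, except the inner peak of replicate 2 (−log10 q 1.44).

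E-type cyclins and their kinase Cdk2 had a gene-end peak in at most 1 replicate. Ccne1 had a peak of 257 bp in replicate 2 alone (fold 1.86, −log10 q 0.653), 475 bp outside its start. Ccne2 had no peak of either replicate within 25 kb. Cdk2 had a peak of 610 bp in replicate 1 alone (fold 2.13, −log10 q 0.714), 66 bp inside its start. A shared region of 376 bp stood 1775 bp beyond the other end of Cdk2, at the ends of Pmel and Rab5b.

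The genes of S phase, G2 and mitosis had no overlapping peaks of the replicates within 25 kb. None of Ccna1, Ccna2, Ccnb1, Ccnb2, Ccnb3, Ccnf and Cdk1 was marked (0 of 7, against 16.8% of all genes), none had a base pair under peaks of both replicates within 25 kb (against 30.3% of all genes), and none had a peak of each replicate in its body (against 19.9%). In replicate 1 the class stood near all genes, with a gene-end peak at 2 of 7 (28.6%, against 25.1% of all genes). In replicate 2 it had one at 0 of 7, against 22.2% of all genes. With either replicate it was the same 2 (28.6%, against 30.5%). Cdk1, the mitotic kinase, had a peak of 522 bp in replicate 1 alone (fold 3.54, −log10 q 2.69), 349 bp inside its start. That fold exceeded 94.7% of the gene-end peaks of replicate 1, yet replicate 2 had no peak within 25 kb of Cdk1. Ccnb1, the main mitotic cyclin, had a peak of 833 bp over its start in replicate 1 alone, with a low fold of 1.84 and a −log10 q of 0.551. Ccna2, the somatic A-type cyclin, Ccnb2, and the germ cell cyclins Ccna1 and Ccnb3 had no peak of either replicate within 25 kb. Ccnf, whose product is the F-box part of a ubiquitin ligase, had a replicate 1 peak at 16360 bp and a replicate 2 peak at 2485 bp from its ends, at different places.

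Among all peaks, transcriptional kinases and cyclins were the class marked most often. With q of at most 0.05 in each replicate 1 of 14 stayed marked (7.14%, against 2.64% of all genes). That share was below those of the G1 (12.5%), INK4 (25%) and other cyclin and kinase (11.1%) classes, each also with 1 gene. Of the 7 kinases 5 were marked (71.4%, against 16.8% of all genes). All 7 had a gene-end peak in at least 1 replicate, as did 30.5% of all genes. Of the 7 cyclins 4 were marked (57.1%). Within 25 kb of an end, 13 of the 14 had a peak of each replicate (92.9%, against 36.5% of all genes). The G1 class was close to this, at 7 of 8 (87.5%). Cdk9 with Ccnt1 or Ccnt2 forms P-TEFb, which releases paused RNA polymerase II, and all 3 genes were marked. The peaks at Cdk9 were 1804 bp (fold 2.95, −log10 q 1.77) and 1329 bp (fold 2.11, −log10 q 1.00) wide, and both spanned its start. Those at Ccnt1 were 1378 bp (fold 2.52) and 1782 bp (fold 2.36), with the first wholly inside the second. Ccnt2 had the most unequal folds of any marked member. Its replicate 1 peak of 576 bp had a fold of 1.70 and a −log10 q of 0.500, and only 12.5% of the gene-end peaks of that replicate had a lower fold, whereas its replicate 2 peak of 943 bp had a fold of 14.2 and a −log10 q of 31.5. The latter ranked 2 of the 9477 peaks by fold.

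Cdk12 and Cdk13 pair with cyclin K and keep the polymerase elongating through long genes, and all 3 were marked. Cdk12 had peaks of 2244 bp (fold 2.22) and 2235 bp (fold 2.37) at its start, which shared 2119 bp. For Cdk13 the peaks were 1327 bp (fold 2.35, −log10 q 0.940) and 1878 bp (fold 2.96, −log10 q 2.01), which shared 1180 bp. Ccnk had a narrow peak of 351 bp in replicate 1 (fold 2.81, −log10 q 1.77) inside a peak of 1909 bp in replicate 2 (fold 2.35, −log10 q 1.32), and an end of Setd3 lies within 1 kb of it. The paralogues Cdk12 and Cdk13 were thus alike in having a peak of each replicate over the start, with folds between 2.22 and 2.96.

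The Mediator kinases Cdk8 and Cdk19 and their partner cyclin C differed among themselves. Cdk19 had peaks of 1729 bp (fold 2.35) and 1297 bp (fold 2.16) over the same end, the second wholly inside the first. Cdk8 had a peak of 742 bp over its listed start in replicate 1 alone (fold 2.35, −log10 q 0.835). Ccnc had no peak in replicate 1 within 25 kb and a replicate 2 peak 16401 bp away. In the kinase module of the general factor TFIIH, cyclin H was marked and its kinase was not. Ccnh had peaks of 822 bp (fold 1.97) and 386 bp (fold 3.10), whereas Cdk7 had a peak of 304 bp in replicate 2 alone (fold 2.46, −log10 q 0.950).

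Cdk11b and the L-type cyclins act in splicing. Cdk11b was marked, with peaks of 449 bp (fold 2.85, −log10 q 2.07) and 1180 bp (fold 1.86, −log10 q 0.770) that shared 395 bp. An end of Slc35e2 lies within 1 kb of that replicate 2 peak, though not of the 395 bp shared. A larger shared region of 1925 bp stood 22345 bp away, also at an end of Slc35e2. Ccnl1 and Ccnl2 failed the gene-end rule although each had a shared peak over its listed transcript start, since their annotated extents reach beyond that start. The shared region was 849 bp at Ccnl1 and lay 3379 bp inside the annotated end. At Ccnl2 it was 1154 bp, 1703 bp inside. Their replicate 1 folds were 3.64 and 3.56 and their replicate 2 folds 2.18 and 1.67. Counting a peak of each replicate within 1 kb of either an end or a listed start, 11 of 14 transcriptional members (78.6%) and 22 of all 58 members (37.9%) had one, against 18.3% of all genes.

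**Figure D2:**
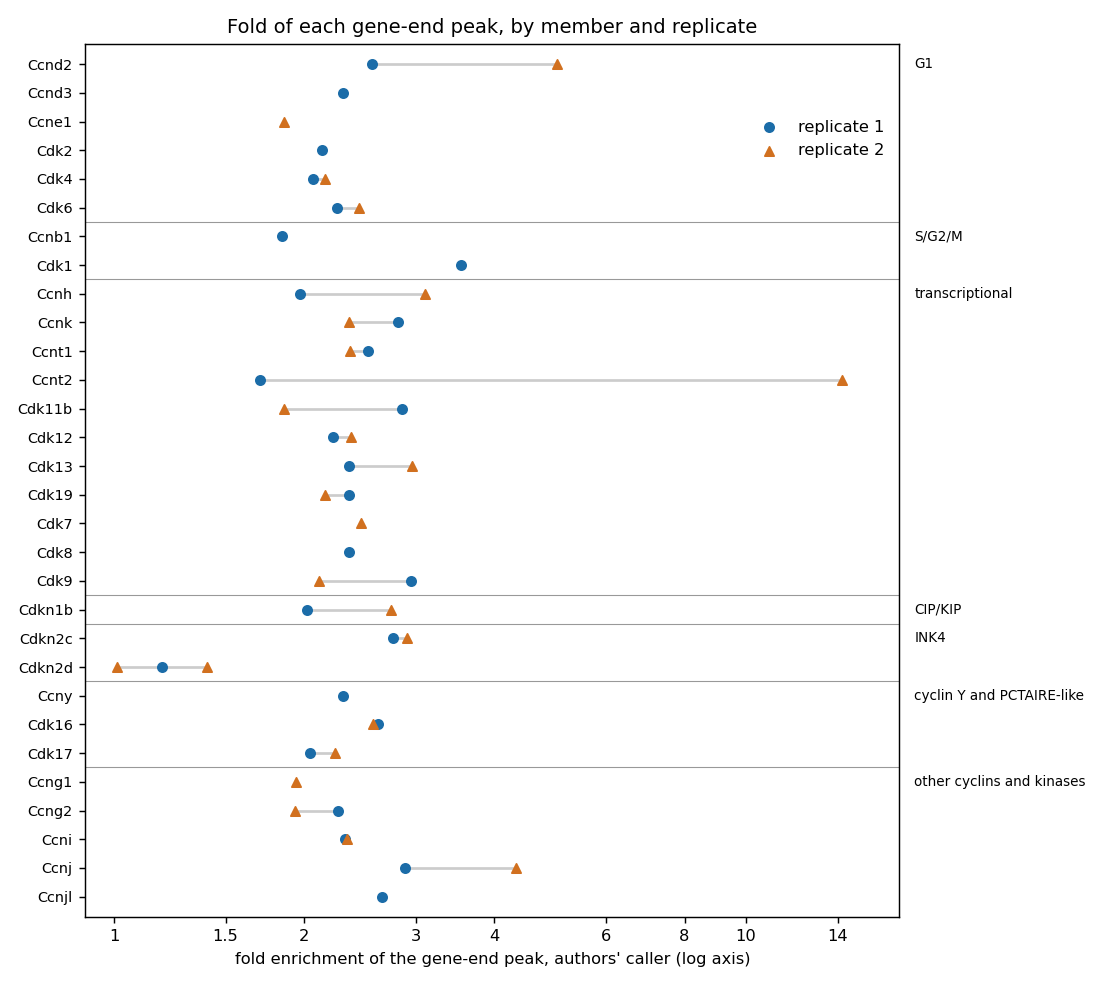
Fold enrichment from the authors' caller (horizontal log axis) of each peak within 1 kb of a member's end, 1 row per member, with circles for replicate 1 and triangles for replicate 2, and a line joining the values of a member. Most folds lie between 1.7 and 3.1, with Ccnt2 in replicate 2 at 14.2, Ccnd2 in replicate 2 at 5.02 and Cdkn2d below 1.5 in both.

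The marked members carried their peaks at the start of the gene wherever a start was listed. RefSeq promoter windows, which run from 250 bases before to 50 bases after a start, were matched by symbol for 48 of the 58 members. Of the 20 marked members 16 had a listed start, and all 16 had a peak of each replicate within 1 kb of it. Among all marked genes with a listed start the share was 93.5%. By listed starts alone, 18 of 48 members (37.5%) had a peak of each replicate within 1 kb, against 18.2% of genes with a listed start. Directly over the window, 15 of 53 member windows had a peak of each replicate (28.3%, against 11.4% of all windows). Of these, 9 were in the 12 transcriptional windows and 0 in the 6 G1 and the 6 S/G2/M windows. The G1 windows come from 5 genes, since Ccnd1, Ccne2 and the marked Ccnd2 have no listed start. Ccna2 of the S/G2/M class has none either. The peaks of Cdk4 began just past its window, and only the replicate 1 peak of Cdk6 reached its listed start.

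**Figure D3:**
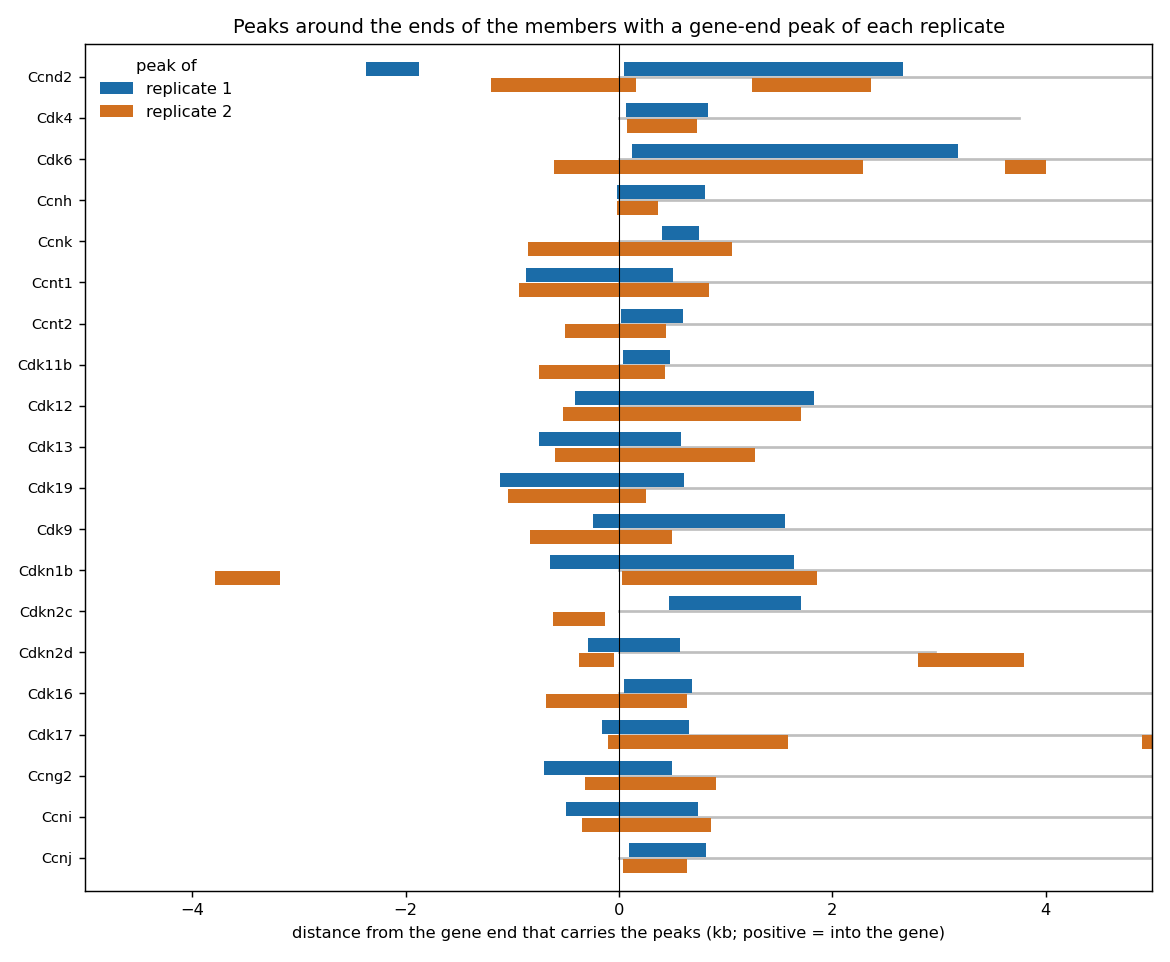
Peaks of replicate 1 (upper bars) and replicate 2 (lower bars) around the gene end that carries them, for the 20 marked members, in kb from that end (horizontal axis, positive into the gene, grey line the gene itself). Peaks of both replicates cover the same stretch in 19 members, and at Cdkn2c they stand on opposite sides of the end.

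Promoters are printed for members of paralogous families with a peak of each replicate touching the window and, by contrast, for mitotic genes. Families were the cyclins D, E, A, B, L, T, G, Y and J, Cdk4 with Cdk6, Cdk1 with Cdk2, Cdk8 with Cdk19, Cdk12 with Cdk13, Cdk14 with Cdk15, Cdk16 with Cdk17 and Cdk18, CIP/KIP and INK4. The first 5 are the family members whose lower fold of the 2 replicates over the window was highest. They are Ccnj (folds 2.89 and 4.32), Cdk16 (2.62 and 2.57), Ccnt1 (2.52 and 2.36), Cdk13 (2.35 and 2.96) and Cdk12 (2.22 and 2.37). Ccnk (2.81 and 2.35) and Ccni (2.32 and 2.34) are in no such family and are not printed. Peaks of both replicates covered all 300 bases at Ccnt1, Cdk13 and Cdk12, 278 at Ccnj and 42 at Cdk16, where the CHR and CCAAT letters lie outside the shared stretch. Cdk1 and Ccnb1 were added after their values were seen, as the S/G2/M members with a peak in 1 replicate. Sequences are from RefSeq, GRCm38.p6, 5′ to 3′ on the strand of the gene, 300 bases each, and the start is base 251. Windows are Ccnj chr19:40831029-40831328 (+), Cdk16 chrX:20687704-20688003 (+), Ccnt1 chr15:98567687-98567986 (−), Cdk13 chr13:17805048-17805347 (−), Cdk12 chr11:98203055-98203354 (+), Cdk1 chr10:69352863-69353162 (−) and Ccnb1 chr13:100786437-100786736 (−). Capitals mark letters searched on both strands: the CHR element is TTTGAA, the CCAAT box is those 5 letters, the E2F core was searched as TTTCGCG and also as TTTGGCG, the E-box is CACGTG and the GC box is GGGCGG, none of which contains another.
Ccnj: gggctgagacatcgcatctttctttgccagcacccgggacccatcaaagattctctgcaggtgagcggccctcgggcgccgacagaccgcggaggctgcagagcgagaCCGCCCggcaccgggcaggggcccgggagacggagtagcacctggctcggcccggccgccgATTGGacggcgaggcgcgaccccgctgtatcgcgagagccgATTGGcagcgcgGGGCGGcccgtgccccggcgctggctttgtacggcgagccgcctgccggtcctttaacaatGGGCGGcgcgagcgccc
Cdk16: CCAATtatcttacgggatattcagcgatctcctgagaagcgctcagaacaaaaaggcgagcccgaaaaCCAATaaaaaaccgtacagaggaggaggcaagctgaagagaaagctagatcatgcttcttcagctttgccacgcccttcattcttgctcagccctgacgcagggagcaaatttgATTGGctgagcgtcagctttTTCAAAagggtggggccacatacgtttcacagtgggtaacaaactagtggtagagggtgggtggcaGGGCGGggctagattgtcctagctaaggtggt
Ccnt1: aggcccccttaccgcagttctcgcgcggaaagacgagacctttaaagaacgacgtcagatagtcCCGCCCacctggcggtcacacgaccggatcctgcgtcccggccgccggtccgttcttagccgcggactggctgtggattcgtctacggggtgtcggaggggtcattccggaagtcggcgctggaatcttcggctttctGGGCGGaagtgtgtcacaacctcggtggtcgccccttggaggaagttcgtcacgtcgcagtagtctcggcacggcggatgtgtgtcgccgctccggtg
Cdk13: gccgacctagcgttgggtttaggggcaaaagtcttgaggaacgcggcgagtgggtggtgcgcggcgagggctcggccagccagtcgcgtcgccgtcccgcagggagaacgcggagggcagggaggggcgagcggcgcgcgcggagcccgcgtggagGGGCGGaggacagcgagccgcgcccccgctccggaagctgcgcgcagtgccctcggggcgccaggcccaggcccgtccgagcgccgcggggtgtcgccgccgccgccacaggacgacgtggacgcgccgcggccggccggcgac
Cdk12: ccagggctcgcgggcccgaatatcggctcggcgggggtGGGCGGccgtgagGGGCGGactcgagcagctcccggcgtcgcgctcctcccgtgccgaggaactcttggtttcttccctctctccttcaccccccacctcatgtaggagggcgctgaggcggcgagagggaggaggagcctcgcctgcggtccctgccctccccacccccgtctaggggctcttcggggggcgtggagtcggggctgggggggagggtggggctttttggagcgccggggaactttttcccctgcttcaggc
Cdk1: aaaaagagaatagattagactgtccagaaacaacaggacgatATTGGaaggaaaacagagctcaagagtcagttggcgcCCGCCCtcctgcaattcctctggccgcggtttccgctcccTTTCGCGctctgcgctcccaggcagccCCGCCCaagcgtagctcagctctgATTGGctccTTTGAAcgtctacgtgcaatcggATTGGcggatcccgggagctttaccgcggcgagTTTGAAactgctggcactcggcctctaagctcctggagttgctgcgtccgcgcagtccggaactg
Ccnb1: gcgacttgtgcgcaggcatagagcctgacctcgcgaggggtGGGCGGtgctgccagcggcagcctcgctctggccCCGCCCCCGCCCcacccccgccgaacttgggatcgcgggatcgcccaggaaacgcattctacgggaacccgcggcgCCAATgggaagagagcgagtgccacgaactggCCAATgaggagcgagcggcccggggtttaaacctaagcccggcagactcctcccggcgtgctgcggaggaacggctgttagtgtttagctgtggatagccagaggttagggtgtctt

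The Cdk1 window holds the CHR letters 2 times, the CCAAT letters 3 times on the opposite strand, an E2F core and the GC box 2 times. The Ccnb1 window holds CCAAT and GC box letters, without CHR letters or an E2F core. Among the printed windows with a peak of each replicate, Ccnt1, Cdk12 and Cdk13 hold GC box letters alone. Ccnj also holds CCAAT letters, and Cdk16 also holds CHR and CCAAT letters. CHR and CCAAT letters are known from promoters of late cell cycle genes, where they are read by the DREAM complex and NF-Y. Over the S/G2/M windows, 3 of 6 held CHR letters (Cdk1, Ccnb2 and Ccnf), against 16% of all windows of the same length, and 5 of 6 held CCAAT, against 38.2%. None of the 12 transcriptional windows held CHR letters, 5 held CCAAT, and all 12 held the GC box, which 46.2% of all windows hold. The GC box was also in 5 of 6 G1 windows and 5 of 6 S/G2/M windows. Over all genes, 71.1% of windows with a peak of each replicate held it. The E-box was found in 2 of 6 G1 windows (Cdk4 and Cdk6), against 7.84%, and in 0 of the S/G2/M windows. An E2F core was found in 3 of 53 member windows (Cdk1, Ccnb1ip1 and 1 of 2 starts of Cdkn2c), against 2.97%. CHR letters were in 13.3% of member windows with a peak of each replicate and in 13.2% of those without. For CCAAT these shares were 46.7% and 47.4%, and for the GC box 93.3% and 73.7%. For the E-box they were 0% and 18.4%, and for E2F 0% and 7.89%. The member shares rest on 15 windows with such peaks and 38 without. Over all genes the order was the reverse for these 2 motifs. There the E-box was in 11.9% of windows with a peak of each replicate and 7.32% of those without, and E2F in 5.66% and 2.63%. These matches describe letters in a short window and were not tested.

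The ratio of observed to expected CpG had a median of 0.851 over member windows and 0.567 over all windows. It was 0.961 in the transcriptional class, 0.915 in the S/G2/M class and 0.845 in the G1 class. Of these windows 9 of 12, 0 of 6 and 0 of 6 had a peak of each replicate. The marked gene Ccnd2 has no listed start and is not among the G1 windows. Over all protein-coding genes, windows with a peak of each replicate had a median of 0.881 and those without had 0.488. The S/G2/M windows, without a shared peak, therefore lay at 0.805 to 0.965, around the level of peak-bearing windows.

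Inhibitor genes split within both families. Of the CIP/KIP genes, Cdkn1b was marked and had the greatest shared coverage of any member. At its start the peaks were 2291 bp in replicate 1 (fold 2.02, −log10 q 0.693) and 1829 bp in replicate 2 (fold 2.74, −log10 q 1.85). A second shared region of 2709 bp began 1268 bp beyond its other end (134926793 to 134929501), under peaks of 3837 bp (fold 2.09) and 2709 bp (fold 2.29), with no other protein-coding gene end within 1 kb. A region of 506 bp at 21727 bp lay at an end of Gpr19. Together 4831 bp within 25 kb of Cdkn1b were under peaks of both replicates, and 99.8% of all genes had less.

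Cdkn1a, a target of p53, had no gene-end peak and a shared region of 309 bp in its body. Its peaks there had a fold of 1.87 with a −log10 q of 12.8 in replicate 1 and a fold of 1.19 with a −log10 q of 7.72 in replicate 2. Low folds with small q recur on chromosomes 9, 14 and 17. Chromosome 17 had 76 peaks in replicate 1 and 56 in replicate 2 with a fold under 2 and a −log10 p of at least 5, and chromosome 9 had 421 of 572 and 341 of 385. Such peaks numbered 104 and 86 on chromosome 14, and 30 and 22 on chromosome 2, where Cdk9 lies. Cdkn1c, an imprinted gene, had no peak of either replicate within 25 kb.

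Of the INK4 genes, which inhibit Cdk4 and Cdk6, Cdkn2c and Cdkn2d were marked, and Cdkn2a and Cdkn2b had no peak of either replicate within 25 kb. Cdkn2c had a peak of 1239 bp inside the gene in replicate 1 (fold 2.76, −log10 q 1.06) and a peak of 491 bp outside it in replicate 2 (fold 2.91, −log10 q 1.49). They did not overlap, and Cdkn2c is the only marked member without a shared base pair at its end. Requiring 1 bp of overlap left 19 marked members (32.8%, against 16.2% of all genes). Cdkn2d, on chromosome 9, had peaks of 870 bp (fold 1.19, −log10 q 3.45) and 328 bp (fold 1.4, −log10 q 13.7) at its start, sharing 246 bp. A replicate 2 peak with a fold of 1.01 lay at its other end, next to Kri1. Such low folds with small q are typical of chromosome 9, where the median folds were 1.44 and 1.25.

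The Y-type cyclins, the PCTAIRE-like kinases and Cdk5 were marked at 2 of 8 genes (25%, against 16.8% of all genes), both of them kinases. Cdk16 had peaks of 639 bp (fold 2.62) and 1319 bp (fold 2.57), and a further shared region of 960 bp lay at the end of Usp11, 4021 bp away. Cdk17 had peaks of 817 bp (fold 2.04) and 1689 bp (fold 2.24), and its paralogue Cdk18 had only a replicate 1 peak at 10494 bp. Cdk14 had body peaks of each replicate at different places, and Cdk15 had no peak at an end or in the body. Ccny had a peak at 1 end, in replicate 1 alone (fold 2.30, −log10 q 0.961). Ccnyl1 and Cdk5, a kinase best known from neurons, had no peak at an end or in the body.

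Of the other cyclins and kinases 3 of 9 were marked (33.3%, against 16.8% of all genes): Ccng2, Ccni and Ccnj. Ccng2 had peaks of 1201 bp (fold 2.26) and 1229 bp (fold 1.93), while Ccng1, a target of p53, had a peak in replicate 2 alone (fold 1.94). Ccni had peaks of 1240 bp (fold 2.32) and 1211 bp (fold 2.34), where an end of 2010109A12Rik lies within 1 kb. Ccnj had peaks of 724 bp (fold 2.89, −log10 q 1.57) and 604 bp (fold 4.32, −log10 q 5.12), and its paralogue Ccnjl had one in replicate 1 alone (fold 2.65). Ccno, known from cells with many cilia, and Cdk20 had no peak within 25 kb. Ccnq and its kinase Cdk10 had replicate 1 peaks alone, at least 12128 bp away. None of the 5 genes that share only the name had a gene-end peak in either replicate. Cdkn2aipnl and Ccnb1ip1 had shared regions of 830 bp and 412 bp nearby, at the ends of Cdkl3 and Parp2.

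The gene-end peaks of the marked members had larger median widths than those of all marked genes, with median folds close to theirs. In replicate 1 their 20 gene-end peaks had a median fold of 2.33 and a median width of 1220 bp, against 2.17 and 897.5 bp for the peaks of all marked genes. In replicate 2 their 21 gene-end peaks had a median fold of 2.36 and a median width of 1297 bp, against 2.33 and 765 bp. Few passed a stricter threshold. With q of at most 0.05 in each replicate, 4 members stayed marked (Ccnd2, Ccnj, Ccnk and Cdkn2d; 6.90%, against 2.64% of all genes), and 2 of them lie on chromosomes 6 and 9. With q of at most 1e-05 in each replicate, 0 did, against 0.731% of all genes, of which 150 of 160 lie on chromosomes 6, 9, 14 and 17. Without those 4 chromosomes 17 of 49 members were marked (34.7%, against 16.9% of genes there) among all peaks.

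Shared coverage near the members came mostly from their own starts or from neighbours. Within 25 kb of an end, 28 members (48.3%) had at least 1 bp under peaks of both replicates, against 30.3% of all genes. The median was 0 bp for the members and for all genes, 793 bp for the transcriptional class and 376.5 bp for the G1 class. In all, 37 shared regions lay in or within 25 kb of members. Of these 19 lay at a member's end, 5 elsewhere in a member's body, and 13 outside. Of the 13 outside, 11 had the end of another protein-coding gene within 1 kb, and the exceptions were the region beyond Cdkn1b and a region of 552 bp at 13169 bp from Ccng2. Of the 19 at ends, 17 had no other protein-coding gene end within 1 kb. A peak of each replicate was present in the body of 24 members (41.4%, against 19.9% of all genes). The median gene length was 29860.5 bp for the transcriptional class, 13866 bp for the S/G2/M class and 17169 bp for all genes. Transcriptional kinases had a median of 72080 bp, and 5 of 7 had a body peak of each replicate. Transcriptional cyclins had a median of 24355 bp, and 6 of 7 had one. A link between length and body peaks was not tested.

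**Figure D4:**
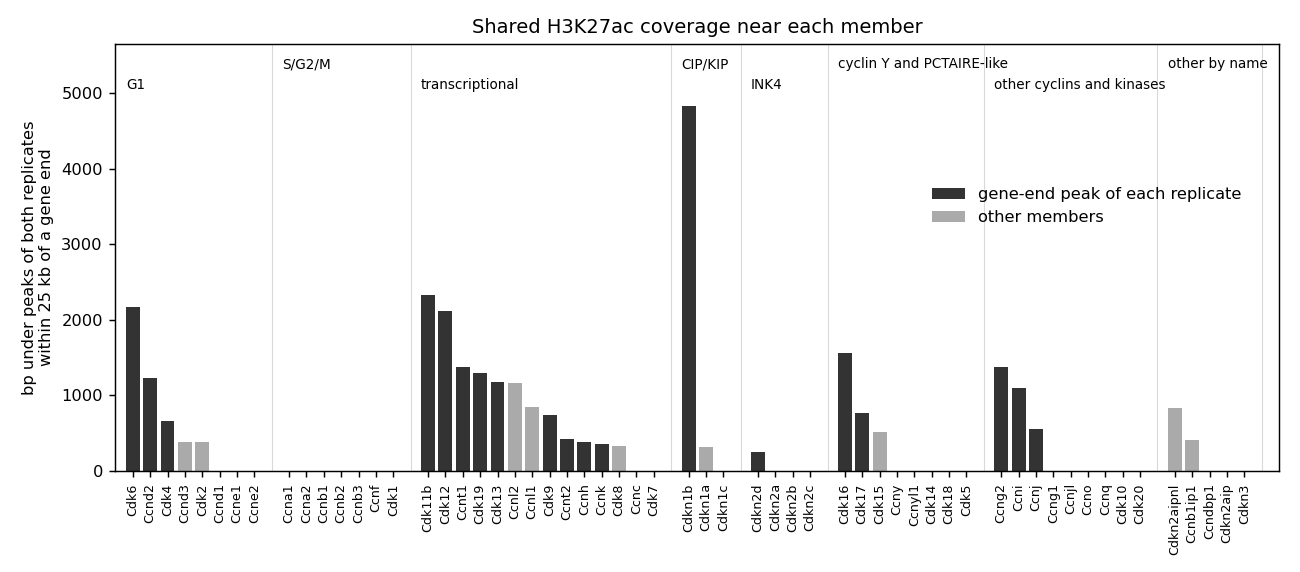
Number of bp that both replicates' peaks cover within 25 kb of an end (vertical axis, larger of the 2 ends) for each of the 58 members, by class, dark where the member is marked and grey where it is not. Cdkn1b stands highest at 4831 bp, followed by Cdk11b at 2320 bp (1925 bp of it at the end of Slc35e2), Cdk6 at 2170 bp and Cdk12 at 2119 bp, and the S/G2/M class has no bar.

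Regulators that act with these genes were read from a list of 36 that the naming rule does not take. Of these 15 were marked (41.7%, against 16.8% of all genes) and a further 10 had a gene-end peak in 1 replicate. With q of at most 0.05 in each replicate 1 was marked (2.78%, against 2.64% of all genes). Among the retinoblastoma family Rbl1 and Rbl2 were marked and Rb1 had no gene-end peak. Of the E2F factors and their partners, E2f2, E2f3, E2f8 and Tfdp1 were marked, with 1852 bp of shared coverage within 25 kb at E2f3. Of the genes that act on P-TEFb, Hexim1 (2887 bp) and Larp7 (470 bp), both parts of its inhibitory complex, were marked, as was Med13 (540 bp) of the Mediator kinase module. Fbxw7, which targets cyclin E for destruction, had 1385 bp. Wee1, which restrains Cdk1, had 411 bp, and Cks2, a small CDK-binding protein, had 235 bp. Foxm1 (528 bp) and Lin9 (795 bp), factors of late cell cycle transcription, and Myc (683 bp) were marked too. The phosphatase genes Cdc25b and Cdc25c and the ligase subunits Skp2 and Cdc20 lacked a gene-end peak in both replicates. The bp given for these regulators are any shared coverage within 25 kb and were not checked for ends of other genes. Regulators without a gene-end peak could have as much, with 1107 bp at Cdc25c and 922 bp at Lin54.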

How the data were processed

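H3K27ac peaks of 2 replicates were analysed; the input was not analysed here. The submitters' processing notes name Bowtie2, the build mm10 and MACS 1.4.2, although the deposited lists have the 9-column broad layout of MACS2. Peak names in the files hold 1 library index and rmdup, as for calling in each replicate after duplicate removal. For the cutoff and the control, the sources used here give nothing. The authors deposited for each peak a fold enrichment (a ratio), a −log10 p-value, a −log10 q-value and a score, which entered no result.

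From these lists, peaks on the assembled chromosomes (75 and 55 others were left out) were placed with a RefSeq gene table. Its 21887 protein-coding genes were counted by symbol; windows were 1 kb and 25 kb around either gene end. Listed starts and promoter sequences came from RefSeq, GRCm38.p6. No set test was made, and no interval can be given since read depth is unknown. Every member is accounted for; members of the G1, S/G2/M, transcriptional and inhibitor classes with a gene-end peak are named with the values of each replicate. Members were taken by symbol, but the naming rule, classes and lists were chosen with earlier results of these data known. Gene calls were tested on simulated data. Alternatives were other q, windows, overlaps, either replicate, each replicate alone and listed starts; leaving out chromosomes 6, 9, 14 and 17 was chosen after seeing the data. Python 3.11.15, pandas 2.3.3, numpy 2.4.6 and matplotlib 3.10.9 were used.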

Additional observations from a re-analysis of the deposited data

How the results depend on the processing

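The count of marked members, 20, fell to 4 with q of at most 0.05 and to 0 with q of at most 1e-05. At those thresholds the G1 count of 3 fell to 1 (12.5%) and 0, and the transcriptional count of 9 to 1 (7.14%) and 0. The count of other pathway genes, 15, fell to 1 (2.78%) and 0. Of all genes, 2.64% and 0.731% were marked at these thresholds. With a peak of either replicate the G1 count was 6 (75%), the S/G2/M count 2 instead of 0 (28.6%) and the pathway count 25 (69.4%), against 30.5% of all genes. Taking each replicate alone gave 23 to 27 members, 4 to 5 G1 members, 0 to 2 S/G2/M members, 10 transcriptional members and 19 to 21 pathway genes. Of all genes, 25.1% had a gene-end peak in replicate 1 and 22.2% in replicate 2. The G1 count of 5 and the S/G2/M count of 2 came from replicate 1. The median of covered bp within 25 kb, 0 with both replicates, was 488.5 to 1027 with 1 replicate, and 340 within 50 kb. Windows of 500 bp and 2.5 kb, required overlap, listed starts alone and leaving out chromosomes 6, 9, 14 and 17 (chosen after seeing the data) kept all 5 counts within 1.5 times. No paired analysis was possible because the study's peak lists come from 1 group. Depth is unknown, so an absent peak does not show absent acetylation.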
